A study of Mus musculus with 12 samples.

Results

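The 54 genes described here are the mouse chemokines and chemokine receptors that the arrays measured with a probe set of their own. They were chosen by name from 18194 genes: symbols made of Ccl, Cxcl, Ccr or Cxcr and a number, together with Cx3cl1, Cx3cr1, Xcl1, Xcr1 and Ackr1 to Ackr4, where a probe set named 1 gene. A gene was represented by its probe set with the highest mean over the 12 arrays, which left 34 genes with their only probe set and 20 with a choice among several. The set held 33 ligands, 17 classical receptors and 4 atypical receptors.

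Chemokines are small secreted proteins that set up concentration gradients along which leukocytes move. They act through receptors that couple to inhibitory G proteins and drive actin remodelling and integrin activation. Atypical receptors bind the same ligands without that coupling and clear or transport them. In skeletal muscle, chemokines are known for bringing neutrophils and monocytes into injured tissue, and several are also made by muscle fibres and by the fibroblasts, vessels and macrophages between them.

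RNA of the gastrocnemius, a calf muscle, was hybridised from 4 groups of 3 arrays. The animals were mice of mixed C57Bl/6N/6J/129 background, and the groups were wild-type or knock-out at an age of 10 weeks (young) or 24 months (old). Knock-out stands for a deletion of Ppargc1a, which encodes the coactivator PGC-1alpha, by a cre under the myogenin promoter, so that the deletion is aimed at the muscle lineage and leaves vessels, fibroblasts and leukocytes with the gene. The study asked how loss of PGC-1alpha in muscle bears on ageing, glucose tolerance and inflammation, as its title states. Whether the 3 arrays of a group stand for 3 animals is not in the labels, and p-values here therefore reflect array-to-array spread, which may be technical. Arrays are numbered within a group to name them, and equal numbers pair nothing.

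Signals are log2 values on the RMA scale. The median of all 45101 probe sets, averaged over arrays, was 6.22, and deposited values ran from 3.20 to 15.95. Array medians lay between 6.19 and 6.25 and arrays of a group correlated at 0.989 to 0.996 over all probe sets. Old knock-out array 1 stood apart all the same. On the first principal component over all genes (37.8% of the variance) it lay at 42.6, against 19.3 and 15.7 for the others of its group. Its limma array weight, 0.282, was the lowest of the 12. The mean of 10 muscle markers ran from 15.32 to 15.42 over the arrays. These means lie near the highest deposited value, so their narrow range does not show that muscle content was equal. Ppargc1a itself had no lower signal under the knock-out label. On its brightest probe set the young wild-type arrays read 10.77, 11.17 and 11.18 and the young arrays labelled knock-out 11.14, 11.48 and 12.10. The old wild-type arrays read 12.09, 11.76 and 11.51 and the old arrays labelled knock-out 12.06, 11.84 and 12.33. Its 5 probe sets were higher under that label by 0.42 to 0.58 (log2) in young and by 0.29 to 0.49 in old muscle. The labels do not say which exons were removed, so a probe set outside them would check nothing, and each genotype direction below rests on the labels alone.

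Of the 54 genes, 20 (37.0%) had a mean signal above the median of all probe sets, against 62.4% of the 18194 genes. Of those 20, 17 were ligands and 3 were atypical receptors. None of the 17 classical receptors lay above it. A probe set's signal depends on its probes as well as on the transcript, so the order of genes by signal is no order of abundance.

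**Figure D1:**
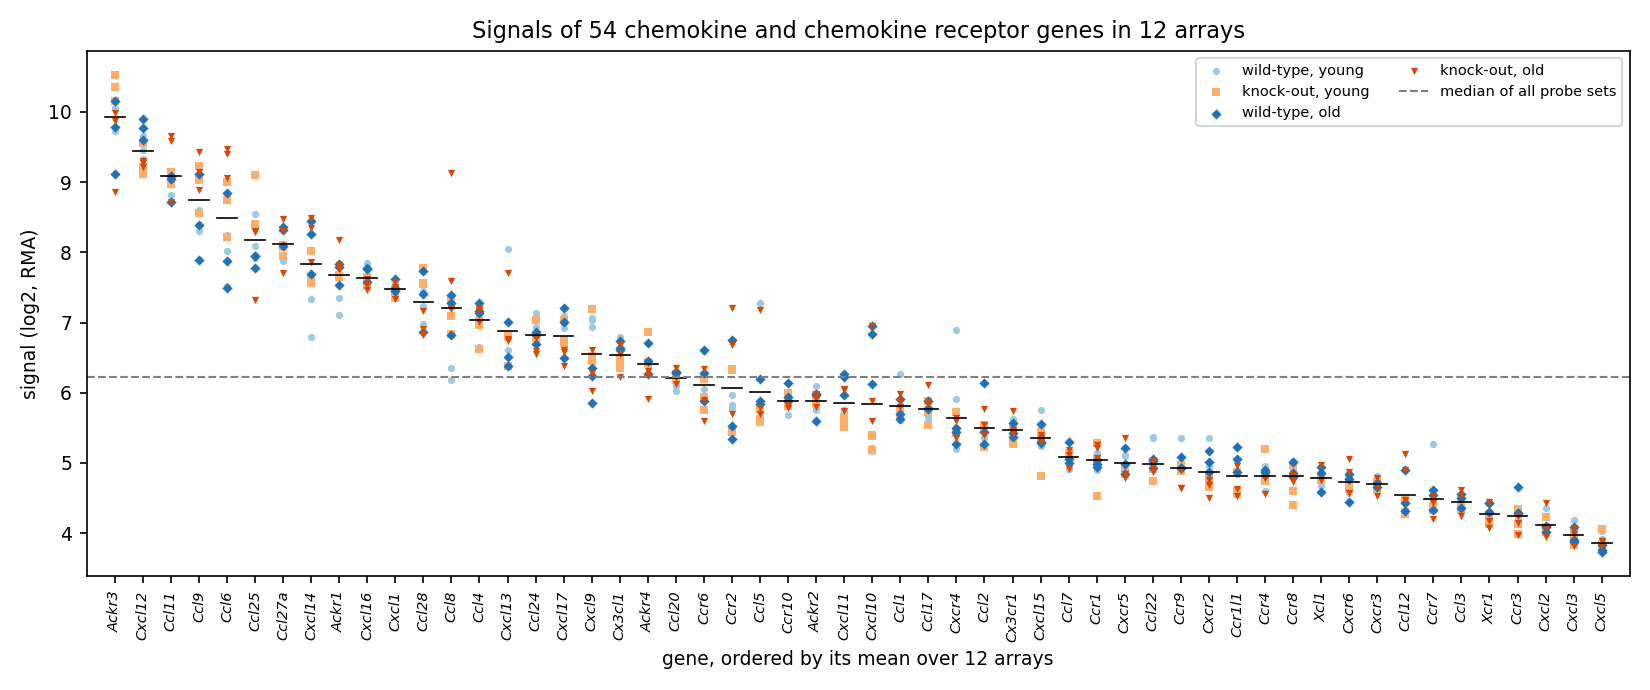
Signal (log2, RMA) of each of the 54 genes in the 12 arrays, with genes in the order of their mean (black dashes), symbols for the 4 labelled groups and the median of all probe sets (6.22) as a dashed line. Ligands and the atypical receptors Ackr3, Ackr1 and Ackr4 make up the 20 genes whose mean lies above the line, and single arrays stand apart for Ccl8, Cxcl13, Ccl5 and Cxcr4.

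The 10 brightest genes were Ackr3 (mean 9.93), Cxcl12 (9.45), Ccl11 (9.08), Ccl9 (8.75), Ccl6 (8.49), Ccl25 (8.17), Ccl27a (8.12), Cxcl14 (7.84), Ackr1 (7.67) and Cxcl16 (7.64). Ackr3 takes up Cxcl12, which holds stem cells and lymphocytes in their niches through Cxcr4. Ccl11 draws eosinophils, Ccl25 thymocytes and gut lymphocytes, and Ccl27a skin-homing T cells. Cxcl16 is a membrane-bound ligand of Cxcr6, and Ackr1 carries inflammatory chemokines across venules. Cxcl1, Ccl28, Ccl8, Ccl4, Cxcl13, Ccl24, Cxcl17, Cxcl9, Cx3cl1 and Ackr4 followed at 7.47 to 6.41. Just inside the line were Cx3cl1 (6.54) and Ackr4 (6.41), and just outside were Ccl20 (6.21), Ccr6 (6.12), Ccr2 (6.07) and Ccl5 (6.01). The lowest means belonged to Cxcl5 (3.86), Cxcl3 (3.98) and Cxcl2 (4.11), ligands of the neutrophil receptor Cxcr2.

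The receptors of several bright ligands were dim. Cxcr4, the receptor of Cxcl12, averaged 5.64, and Ccr3, which binds Ccl11 and Ccl24, averaged 4.25. Ccr9, the receptor of Ccl25, averaged 4.93, and Cxcr6 averaged 4.73. Ccr1, a receptor of several inflammatory CC ligands, averaged 5.04, and Cxcr3, the shared receptor of Cxcl9, Cxcl10 and Cxcl11, averaged 4.70. Dim signals compress differences, and below the median of all probe sets a difference of 0 is hard to tell from a small one.

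In 7 comparisons fitted over all genes with limma, 7 of the 54 genes (13.0%) passed an adjusted p of 0.05 in at least one, against 19.8% of all genes. They were Cxcl9, Cxcl10, Cxcl11, Cxcl14, Ccl28, Ccl6 and Cxcr2. Age accounted for 5 of them and genotype, averaged over ages, for the other two. Between labelled knock-out and wild-type, no gene of the set passed in young muscle, where 0.192% of all genes did, or in old muscle, where 1.32% did. At an unadjusted p under 0.05 the set held 3 genes in young muscle (1 higher, 2 lower, 5.56% against 11.3% of all genes) and 8 in old muscle (2 higher, 6 lower, 14.8% against 19.3%). Between old and young wild-type muscle 3 of 54 passed (3.62% of all genes), 2 of them higher in old muscle (1.65% of all genes) and 1 lower (1.97%), and 6 had an unadjusted p under 0.05 (16.6% of all genes). Between old and young muscle labelled knock-out 1 of 54 passed and was lower in old muscle (10.3% of all genes passed, 5.41% as lower), and 8 had an unadjusted p under 0.05 (24.9%). With both genotypes averaged, 4 of 54 differed with age (16.2% of all genes), 3 higher (7.58%) and 1 lower (8.65%), and 12 had an unadjusted p under 0.05 (28.9%). With both ages averaged, 2 of 54 differed with genotype (4.22% of all genes), 1 higher (1.71%) and 1 lower (2.51%), and 13 had an unadjusted p under 0.05 (23.2%). The interaction of genotype and age called no gene of the set and none of all genes by limma (0.00%). Of the set 2 genes and of all genes 992 (5.45%) had an unadjusted interaction p under 0.05.

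Medians over the 54 genes stayed close to those of all genes. They were -0.07 against -0.01 for genotype in young muscle and -0.04 against -0.02 in old muscle. For age they were 0.00 against 0.00 in wild-type muscle and 0.06 against -0.01 in muscle labelled knock-out (all log2 differences). The 2 genotypes' arrays did not overlap for 6 of 54 genes in young muscle (20.8% of all genes), 2 higher under the knock-out label (10.7%) and 4 lower (10.1%). In old muscle they did not overlap for 8 genes (23.8% of all genes), 2 higher (10.6%) and 6 lower (13.2%). With age, 7 genes did not overlap in wild-type muscle (26.2% of all genes), 6 higher in old arrays (12.8%) and 1 lower (13.5%). In muscle labelled knock-out 12 did not (28.7%), 6 higher (13.8%) and 6 lower (14.9%). Over all 12 arrays, 1 gene separated the ages (8.37% of all genes) and 1 the genotypes (2.87%).

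**Figure D2:**
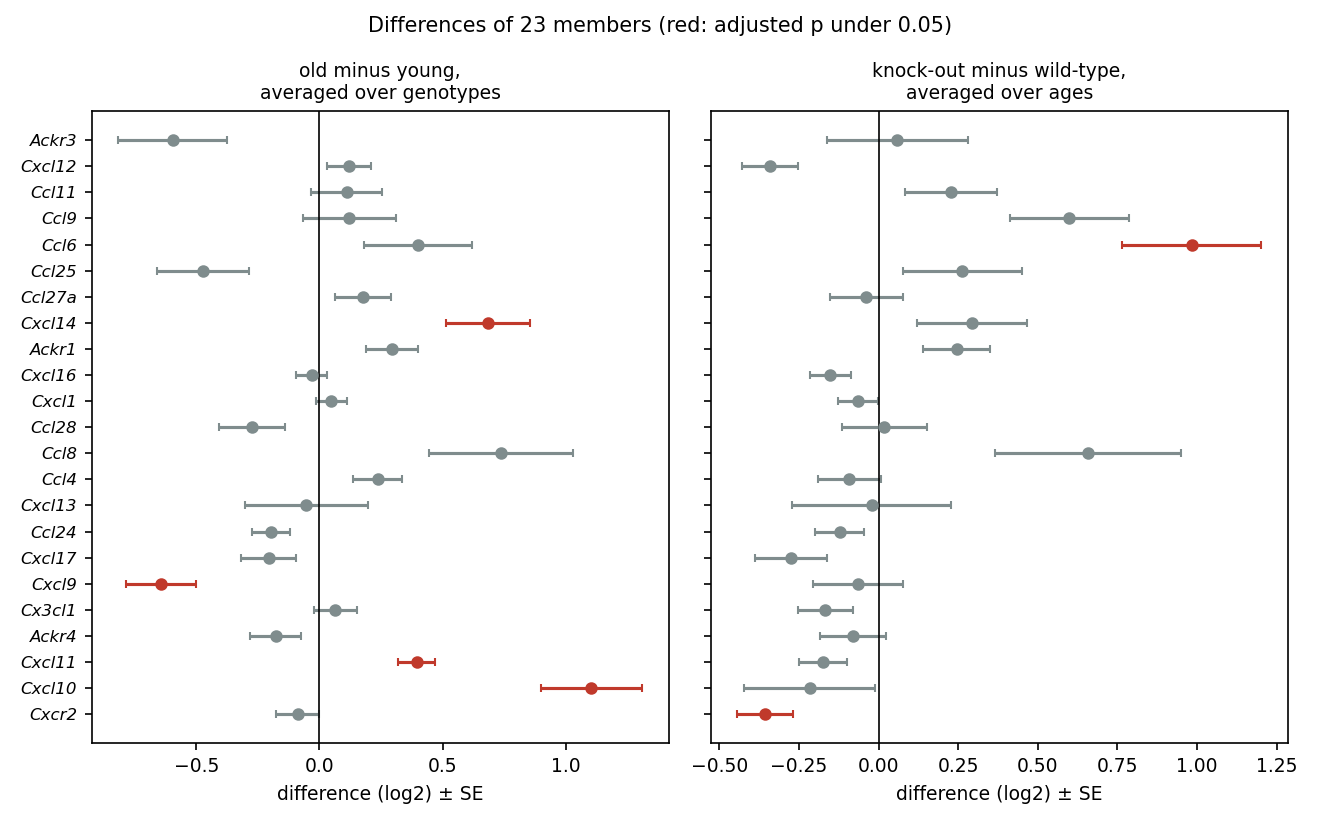
Log2 difference with its standard error for the 20 genes above the median of all probe sets and the 3 dimmer genes that passed a test (Cxcl11, Cxcl10 and Cxcr2), from 12 arrays. The left panel is old minus young averaged over genotypes, where Cxcl10, Cxcl14 and Cxcl11 lie to the right and Cxcl9 to the left in red, and the right panel is labelled knock-out minus wild-type averaged over ages, where Ccl6 (0.98) and Cxcr2 (-0.36) are red.

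All 3 interferon-induced ligands of Cxcr3 differed with age, and in opposite directions. Cxcl10 and Cxcl11 rose and Cxcl9 fell. Interferon-gamma induces these ligands in many cell types, and their proteins, where made, draw activated T cells and natural killer cells. RefSeq places their genes together on chromosome 5 in the order Cxcl9, Art3, Cxcl10 and Cxcl11, and lists Cxcl11 as a transcribed pseudogene in its assembly. Transcript signals do not show whether a Cxcl11 protein was made in these mice.

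The 250 bases before the start of Cxcl9 and Cxcl10 are shown because these neighbours moved in opposite directions. They come from RefSeq (GRCm38.p6, minus strand), at chr5:92328080-92328329 for Cxcl9 and chr5:92348890-92349139 for Cxcl10, and read 5′ to 3′ towards the start. Capitals mark matches to 3 motifs searched on both strands: GGGANTTCC (NF-kB), TGANTCA (AP-1) and the core of the interferon-stimulated response element (GAAA, any 2 bases and GAAA again).
Cxcl9: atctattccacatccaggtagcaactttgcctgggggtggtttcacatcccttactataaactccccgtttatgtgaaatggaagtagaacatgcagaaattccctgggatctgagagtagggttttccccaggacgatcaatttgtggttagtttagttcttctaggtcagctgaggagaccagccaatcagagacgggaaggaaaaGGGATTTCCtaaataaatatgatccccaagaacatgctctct
Cxcl10: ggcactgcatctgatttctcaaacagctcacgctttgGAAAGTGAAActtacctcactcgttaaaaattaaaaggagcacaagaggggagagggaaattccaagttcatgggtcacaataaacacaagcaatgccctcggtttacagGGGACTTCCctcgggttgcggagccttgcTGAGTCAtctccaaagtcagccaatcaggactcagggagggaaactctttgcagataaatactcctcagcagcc
Both held the NF-kB letters, 42 to 34 bases before the start in Cxcl9 and 103 to 95 in Cxcl10, as did 1.43% of 32851 promoters of that length and 3 of the 41 members with an entry. Only Cxcl10 of the pair held the response element letters, at 213 to 204 bases, and the AP-1 letters, at 74 to 68 bases, found in 2.98% and 6.75% of promoters. Other forms of interferon and NF-kB element were not searched. The lack of response element letters in Cxcl9 therefore does not show that it has none, and the marked NF-kB matches are no full count of such sites. The best local match between the pair spanned 28 aligned positions with 23 identical (82.1%). A match of letters is a description of the sequence and shows no binding.

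Cxcl10 read 5.39, 5.21 and 5.18 in young wild-type arrays and 6.84, 6.95 and 6.13 in old ones. In arrays labelled knock-out it read 5.38, 5.18 and 5.40 when young and 5.60, 6.95 and 5.88 when old. All 6 old arrays lay above all 6 young arrays, which 3.69% of all genes showed in that direction. Cxcl10 was the one gene of the set to do so. In wild-type muscle the difference was 1.38 ± 0.29 (log2 ± SE, limma adjusted p = 0.0241), at least 2.61-fold, since the young level lay below the median of all probe sets. In muscle labelled knock-out it was 0.83 ± 0.29 (adjusted p = 0.0958). It passed in 2 of 18 alternatives (adjusted p over them 0.0349 to 0.239) and moved with single old arrays of that label: it was 1.10 without array 1 (adjusted p = 0.0451) and 0.42 without array 2 (adjusted p = 0.239). Averaged over genotypes it was 1.10 ± 0.21 (adjusted p = 0.00355), and it passed in each of the 18 alternatives that kept the gene, with adjusted p from 0.000443 to 0.0116. The wild-type call alone was lost without young wild-type array 1, 2 or 3 (adjusted p 0.0563, 0.0760 and 0.0975) and without old wild-type array 1 or 2 (0.0802 and 0.0980).

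Cxcl11 read 5.73, 5.67 and 5.76 in young wild-type arrays and 6.22, 6.27 and 5.97 in old ones. The arrays labelled knock-out read 5.59, 5.66 and 5.51 when young and 5.74, 6.04 and 6.05 when old. Old arrays lay above young ones within each genotype, by smaller steps than for Cxcl10. The difference was 0.43 ± 0.11 in wild-type muscle (adjusted p = 0.0439), 0.36 ± 0.11 in muscle labelled knock-out (adjusted p = 0.0525) and 0.40 ± 0.08 averaged over genotypes (adjusted p = 0.00391). The average passed in all 18 alternatives that kept the gene (adjusted p 0.000816 to 0.0196). The wild-type call was lost in 11 of them, with adjusted p up to 0.308 for the mean of both probe sets (0.19). Leaving out young wild-type array 1, 2 or 3, young knock-out array 1, 2 or 3, or old wild-type array 1 or 2 each lost it (adjusted p 0.0550 to 0.166). The gene's second probe set, at a mean of 4.09, differed by 0.08 averaged over genotypes.

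Cxcl9 fell. It read 6.94, 7.03 and 7.06 in young wild-type arrays and 6.35, 6.23 and 5.85 in old ones. In arrays labelled knock-out it read 6.53, 7.19 and 6.45 when young and 6.61, 6.28 and 6.03 when old. The wild-type groups did not overlap, while old knock-out array 1 lay above 2 of the 3 young arrays of that label. The difference in wild-type muscle was -0.87 ± 0.20 (adjusted p = 0.0342), at least 1.83-fold lower. In muscle labelled knock-out it was -0.42 ± 0.20 (adjusted p = 0.220), and -0.18 without young knock-out array 2 (adjusted p = 0.619). Averaged over genotypes it was -0.64 ± 0.14 (adjusted p = 0.00864), and it passed in all 19 alternatives (adjusted p 0.00184 to 0.0253). The wild-type call was lost in 7 of the 19: with the mean of all probe sets (-0.47, adjusted p = 0.0961) and without any 1 of the 6 wild-type arrays, with adjusted p from 0.0545 without old array 1 to 0.134 without old array 3. The gene's second probe set, at a mean of 4.21, differed by -0.06.

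**Figure D3:**
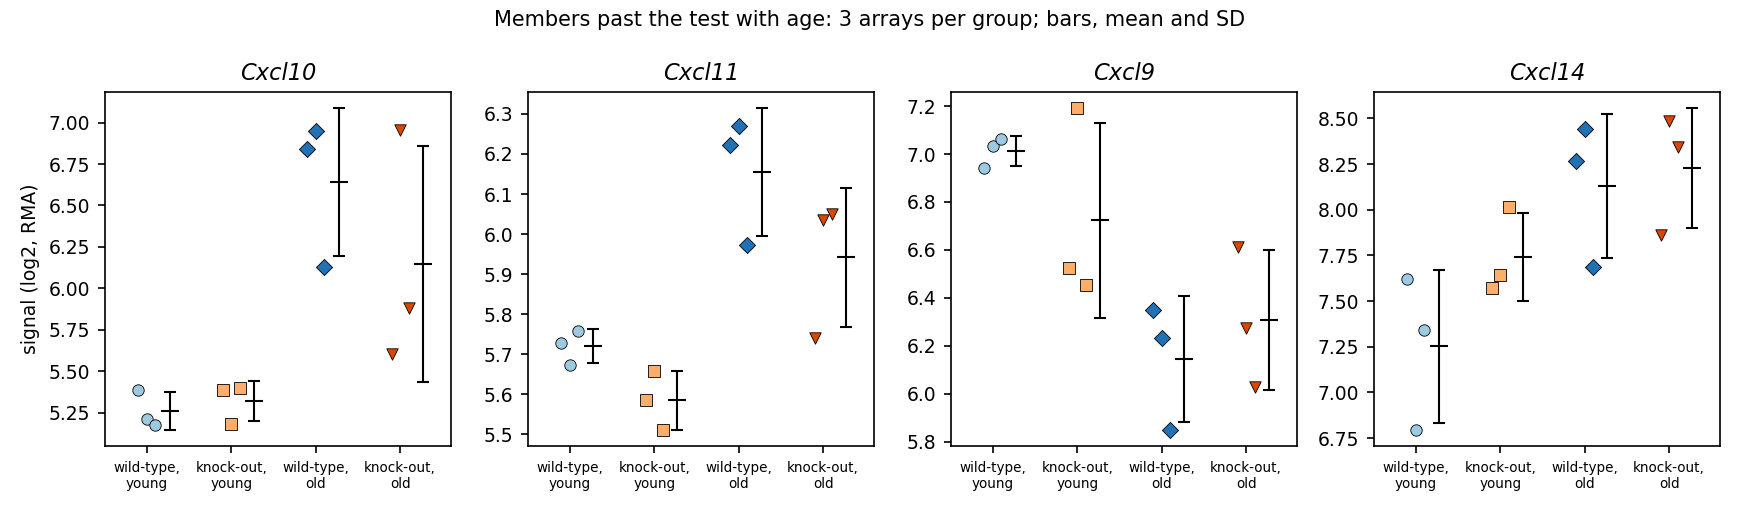
Signal (log2, RMA) of Cxcl10, Cxcl11, Cxcl9 and Cxcl14 in the 3 arrays of each labelled group, with the mean and SD beside the points, on an axis of its own for each gene. All old arrays of Cxcl10 lie above all young arrays (5.18 to 5.40), and Cxcl9 in wild-type muscle runs from 6.94 to 7.06 in young to 5.85 to 6.35 in old arrays.

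The difference between genotypes in these age effects was tested by the interaction. It was -0.56 ± 0.41 for Cxcl10 (limma adjusted p = 0.880, and -0.96 to -0.29 over the alternatives), -0.08 ± 0.15 for Cxcl11 (adjusted p = 0.958) and 0.45 ± 0.28 for Cxcl9 (adjusted p = 0.871, and 0.23 to 0.68 over the alternatives). None passed, and a p of this size does not show that the genotypes age alike. Of the upstream genes, Ifng, which encodes interferon-gamma, averaged 4.54 and differed by -0.02 ± 0.08 with age averaged over genotypes (adjusted p = 0.885). Irf1, an interferon-induced transcription factor, differed by -0.10 ± 0.06 (adjusted p = 0.333). Both were picked after their values were seen.

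Marker lists of other cell types and measures of RNA quality were read beside the age differences, where 7.58% of all genes were called higher and 8.65% lower averaged over genotypes. Markers of macrophages averaged 7.27 to 7.84 in young and 7.32 to 8.37 in old arrays, over 14 genes of which 2 were higher in old muscle (Lgals3 and Cd68) and none lower. B cell and plasma cell markers were higher for 2 of 8 (Ighm and Jchain), and the mean of 12 T cell markers ran from 5.33 to 5.94 in young and 5.32 to 5.56 in old arrays. Mesenchymal markers were lower for 5 of 7, among them Col1a1 and Pdgfrb, and endothelial markers for 2 of 12 (Cdh5 and Prox1). None of 7 adipocyte markers was called, but their mean differed widely among old arrays. It was 9.29, 9.15 and 9.82 in old wild-type arrays and 11.46, 10.93 and 9.25 in old arrays labelled knock-out. Young arrays of both genotypes ran from 9.55 to 10.36. The 18S ribosomal probe sets averaged 13.8 and 13.7 in young groups and 12.1 and 12.4 in old ones, and the Actb 5′ minus 3′ difference rose from -0.29 and -0.20 to -0.13 and -0.01 (group means, wild-type and labelled knock-out). Their part in the age differences was not tested. In whole muscle, fewer cells of a type and less RNA per cell cannot be told apart.

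Cxcl14, a constitutively made chemokine of epithelia and stroma, was higher in old muscle when genotypes were averaged. Its young wild-type arrays read 7.62, 6.79 and 7.34 and its old ones 8.26, 8.44 and 7.69. The arrays labelled knock-out read 7.57, 7.64 and 8.02 when young and 7.86, 8.48 and 8.34 when old. The wild-type groups did not overlap, while those labelled knock-out did. The averaged difference was 0.68 ± 0.17 (adjusted p = 0.0172), 1.61-fold, and it was 0.88 ± 0.24 in wild-type muscle (adjusted p = 0.0722) and 0.49 ± 0.24 in muscle labelled knock-out (adjusted p = 0.238). The call was lost in 1 of 19 alternatives, the mean of both probe sets (0.33, adjusted p = 0.205), because the second probe set, at a mean of 7.53, differed by -0.02.

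Ccl28, a ligand of Ccr10 and Ccr3 known from mucosal epithelia, was lower with age in muscle labelled knock-out, close to the threshold. Its young arrays of that label read 7.56, 7.78 and 7.55 and its old ones 6.92, 6.82 and 7.16. These groups did not overlap. The wild-type arrays read 6.98, 7.45 and 7.24 when young and 7.41, 7.73 and 6.87 when old. Signal fell by 0.66 ± 0.19 (log2, adjusted p = 0.0463), 1.58-fold. The interaction was -0.78 ± 0.27 (adjusted p = 0.871, unadjusted 0.0138). The call was lost in 11 of 19 alternatives, among them the mean of its probe sets (-0.27, adjusted p = 0.0697). It was also lost without any 1 of young wild-type array 2 or 3, young knock-out array 1, 2 or 3, old wild-type array 1, and old knock-out array 1 or 2 (adjusted p 0.0501 to 0.151). Cxcl11, at an adjusted p of 0.0525 in the same comparison and with groups that did not overlap, passed in 5 of its 18 alternatives, some of them among those where Ccl28 did not. The other 2 probe sets of Ccl28, at means of 5.94 and 4.15, differed by -0.09 and -0.06.

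The atypical receptors Ackr1, Ackr3 and Ackr4 and the ligand Ccl25 were among the 4 brighter genes with the smallest age p in at least one comparison without passing. Ackr1, the venular chemokine carrier, read 7.69, 7.11 and 7.35 in young wild-type and 7.53, 7.83 and 7.79 in old wild-type arrays. Its arrays labelled knock-out read 7.68, 7.64 and 7.68 when young and 7.83, 8.18 and 7.77 when old. The averaged age difference was 0.30 ± 0.11 (adjusted p = 0.0788), and it passed in 4 of 19 alternatives, among them the one without young wild-type array 1 (0.37, adjusted p = 0.0212). Ackr3 read 10.53, 9.73 and 10.05 in young wild-type and 10.16, 9.79 and 9.12 in old wild-type arrays. Those labelled knock-out read 10.16, 10.35 and 10.52 when young and 8.86, 9.98 and 9.86 when old, so that the latter groups did not overlap. Its averaged difference was -0.60 ± 0.22 (adjusted p = 0.0915), and in muscle labelled knock-out it was -0.77 ± 0.31 (adjusted p = 0.143), or -0.42 without old knock-out array 1 (adjusted p = 0.431). Ackr4, which clears Ccl19, Ccl21 and Ccl25, differed by -0.42 ± 0.15 in muscle labelled knock-out (adjusted p = 0.0887, and -0.28 without young knock-out array 2, adjusted p = 0.295), with an interaction of -0.49 ± 0.21 (adjusted p = 0.871). The other probe sets of Ackr4, at means of 6.25 and 6.16, differed there by -0.37 and -0.001, with interactions of -0.22 and 0.06. Ccl25 read 8.39, 8.401 and 9.10 in young and 7.32, 8.29 and 8.31 in old arrays labelled knock-out, which did not overlap. It differed there by -0.66 ± 0.26 (adjusted p = 0.140), by -0.33 without old knock-out array 1 (adjusted p = 0.422) and by -0.42 without young knock-out array 3 (adjusted p = 0.421). The second probe set of Ccl25, at a mean of 6.78, differed there by -0.22.

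Ccl6 was higher in the muscle labelled knock-out when ages were averaged, and its neighbour Ccl9 pointed the same way without passing. Both are CC chemokines of myeloid cells, and Ccl9 acts through Ccr1. RefSeq lists the run Ccl5, Ccl9, Ccl6, Ccl3 and Ccl4 on chromosome 11, where 14 of the 54 genes lie. The 250 bases before the start of Ccl6 and of Ccl9 are shown as the pair whose signals differed together. They come from RefSeq (GRCm38.p6, minus strand), at chr11:83593088-83593337 for Ccl6 and chr11:83578637-83578886 for Ccl9. Capitals mark matches to CAGGAAG (an ETS motif, read here on the opposite strand) and to TGANTCA (AP-1), searched on both strands.
Ccl6: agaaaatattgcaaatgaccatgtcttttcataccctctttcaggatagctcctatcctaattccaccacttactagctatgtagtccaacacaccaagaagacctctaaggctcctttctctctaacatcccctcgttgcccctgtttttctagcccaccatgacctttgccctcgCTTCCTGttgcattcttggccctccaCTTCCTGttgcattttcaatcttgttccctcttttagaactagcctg
Ccl9: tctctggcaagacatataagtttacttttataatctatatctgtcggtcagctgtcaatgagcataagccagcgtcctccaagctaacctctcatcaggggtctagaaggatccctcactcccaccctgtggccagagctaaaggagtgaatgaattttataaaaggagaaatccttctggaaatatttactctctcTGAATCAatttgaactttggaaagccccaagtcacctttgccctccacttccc
Ccl6 held the ETS letters at 73 to 67 and again at 47 to 41 bases before the start, letters found in 10.8% of 32851 promoters and in 11 of the 41 members with an entry. Ccl9 held the AP-1 letters at 53 to 47 bases and no full match to CAGGAAG in this window. The best local match of the pair spanned 17 positions with 16 identical (94.1%), at 59 to 43 bases in Ccl6 and 18 to 2 in Ccl9. That stretch takes in part of the Ccl6 match at 47 to 41 bases, and Ccl9 holds the same CTTCC there.

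Ccl6 read 8.25, 7.52 and 8.02 in young wild-type arrays and 8.22, 9.002 and 8.74 in young arrays labelled knock-out. In old muscle it read 7.50, 8.85 and 7.87 in wild-type arrays and 9.47, 9.06 and 9.41 in those labelled knock-out. The old groups did not overlap, the young ones did, and old wild-type array 2 stood above the other two of its group. The difference averaged over ages was 0.98 ± 0.22 (limma adjusted p = 0.0291), 1.98-fold. It was 0.73 ± 0.31 in young (adjusted p = 0.401) and 1.24 ± 0.31 in old muscle (adjusted p = 0.0735), with an interaction of 0.51 ± 0.44 (adjusted p = 0.895, and 0.22 to 0.90 over the alternatives). Without old wild-type array 2 the old difference was 1.63 (adjusted p = 0.0370). The averaged call was lost in 7 of 19 alternatives, each leaving out 1 array: young wild-type array 2 or 3 (adjusted p 0.0814 and 0.0626), young knock-out array 2 or 3 (0.0844 and 0.0637), old wild-type array 1 or 3 (0.0531 and 0.0776) or old knock-out array 1 (0.0501). The second probe set of Ccl6, at a mean of 7.10, differed by 0.70 in young and 1.05 in old muscle.

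Ccl9 read 8.61, 8.30 and 8.39 in young wild-type arrays and 8.56, 9.24 and 9.03 in young arrays labelled knock-out. In old muscle it read 7.89, 9.11 and 8.39 in wild-type arrays and 8.88, 9.14 and 9.43 in those labelled knock-out. The groups overlapped at both ages. The averaged difference was 0.60 ± 0.19 (adjusted p = 0.0903), and it passed in 2 of 19 alternatives (array weights, 0.0322, and without old wild-type array 2, 0.0309). A second probe set of Ccl9 differed by 0.48 in young and 0.67 in old muscle.

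**Figure D4:**
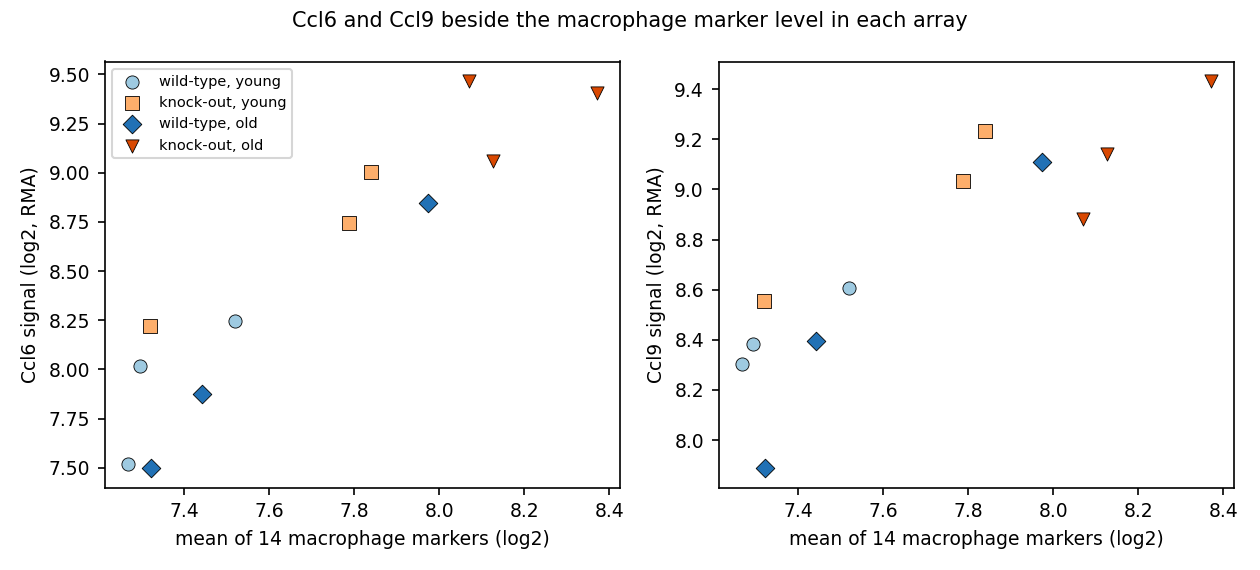
Signal of Ccl6 (left) and Ccl9 (right), log2 RMA, against the mean of 14 macrophage markers in the same array, with a symbol for each labelled group. The old arrays labelled knock-out have the highest marker means (8.07 to 8.37) and the highest Ccl6 signals (9.06 to 9.47), and old wild-type array 2 (marker mean 7.97) lies apart from the other wild-type arrays.

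A list of 14 macrophage markers was read beside Ccl6 and Ccl9. Its mean was 7.52, 7.27 and 7.30 in young wild-type arrays and 7.32, 7.84 and 7.79 in young arrays labelled knock-out. In old muscle it was 7.32, 7.97 and 7.44 in wild-type arrays and 8.07, 8.13 and 8.37 in those labelled knock-out. Of the 14, 2 (Cd68 and the scavenger receptor Cd163) were higher in muscle labelled knock-out averaged over ages (1.28 ± 0.29, adjusted p = 0.0305, and 0.71 ± 0.16, adjusted p = 0.0292), none was lower, and 12 did not pass, where 1.71% of all genes were called higher. The list's median was 0.51 against -0.01 over all genes. Young knock-out array 1 was the lowest and old wild-type array 2 the highest of its group for Ccl6, Ccl9 and the marker mean alike. Old knock-out array 1 had the lowest marker mean of its group (8.07) and its lowest Ccl9 (8.88) but its highest Ccl6 (9.47). The part of macrophage markers in the Ccl6 difference was not tested.

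**Figure D5:**
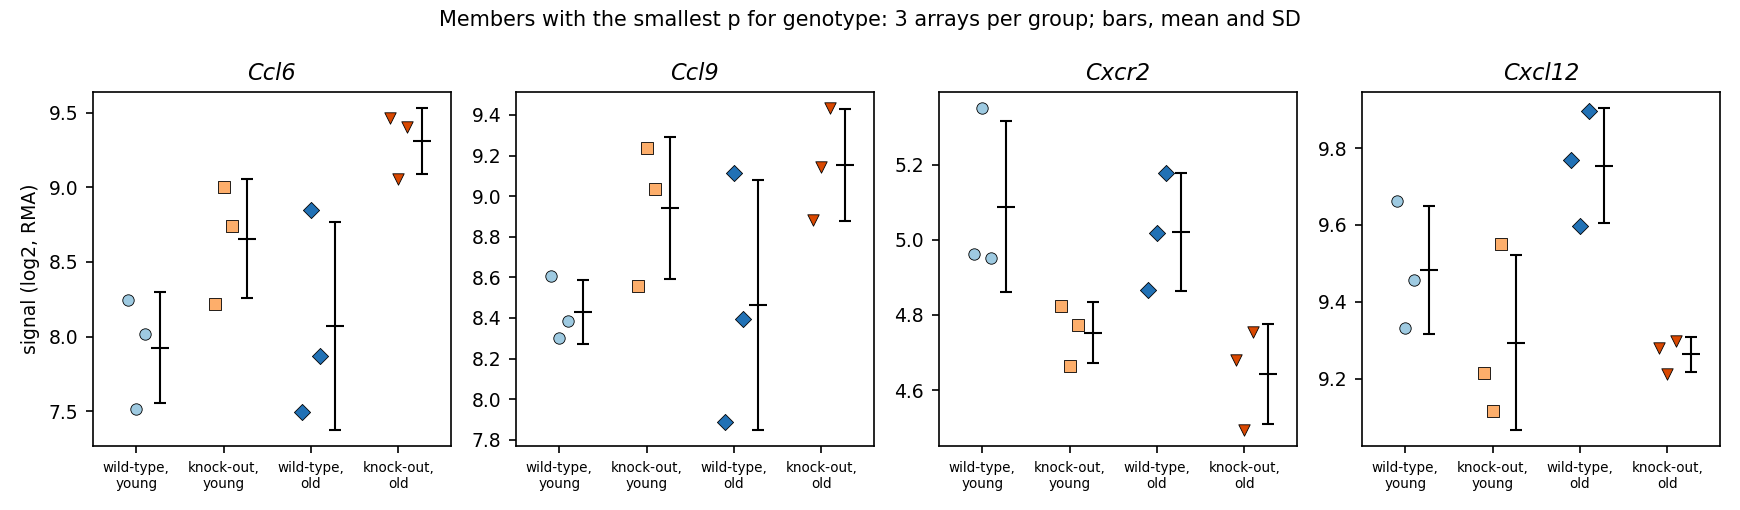
Signal (log2, RMA) of Ccl6, Ccl9, Cxcr2 and Cxcl12 in the 3 arrays of each labelled group, with the mean and SD beside the points, on an axis of its own for each gene. Old arrays labelled knock-out lie highest for Ccl6 (9.06 to 9.47), and the 6 arrays labelled knock-out lie below the 6 wild-type arrays for Cxcr2.

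Cxcr2, the neutrophil receptor for Cxcl1, Cxcl2, Cxcl3 and Cxcl5, was lower in muscle labelled knock-out on a dim probe set (mean 4.88). It read 4.96, 5.35 and 4.95 in young wild-type arrays and 4.82, 4.66 and 4.77 in young arrays labelled knock-out. In old muscle it read 4.87, 5.02 and 5.18 in wild-type arrays and 4.68, 4.49 and 4.75 in those labelled knock-out. All 6 arrays labelled knock-out lay below all 6 wild-type arrays, as for 1.99% of all genes. The averaged difference was -0.36 ± 0.09 (adjusted p = 0.0434), with -0.33 ± 0.12 in young (adjusted p = 0.335; -0.20 without young wild-type array 2) and -0.38 ± 0.12 in old muscle (adjusted p = 0.137). The call was lost in 10 of 18 alternatives, with adjusted p up to 0.113: when quantile normalization was repeated (0.0508), without young wild-type array 2 or 3, without any 1 of the young knock-out arrays, without old wild-type array 2 or 3, and without old knock-out array 1 or 2. Of 7 neutrophil markers 1 was above the median of all probe sets. None of the 7 had a positive averaged difference, and their median was -0.20 against -0.01 over all genes. The 1 marker that passed was the granule protein gene Ngp. It was lower in muscle labelled knock-out (-0.41 ± 0.08, limma adjusted p = 0.0153), where 2.51% of all genes were called lower. The marker mean ran from 5.68 to 6.12 in young wild-type arrays, 5.33 to 5.62 in young knock-out, 5.66 to 5.68 in old wild-type and 5.42 to 6.12 in old knock-out arrays, and its part in the Cxcr2 difference was not tested. Of the 17 classical receptors 14 had a negative averaged difference, with a median of -0.10, where 46.7% of all genes had a positive one. All 17 lay below the median of all probe sets. Of the 34 members below it 23 were negative, but these 17 receptors supply 14 of those 23, so that count is no separate comparison. Of the 20 members above it 11 were negative, and of the 33 ligands at any level 19 were. The median difference was -0.01 over all genes and 0.04 over the genes above that line. The part of signal level in the receptor differences was not tested. Cxcr2 was the one receptor that passed.

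Cxcl12 depended on its probe set. Its brightest probe set read 9.66, 9.33 and 9.46 in young wild-type arrays and 9.22, 9.12 and 9.55 in young arrays labelled knock-out. In old muscle it read 9.77, 9.60 and 9.90 in wild-type arrays and 9.28, 9.21 and 9.30 in those labelled knock-out, and these groups did not overlap. The old difference was -0.49 ± 0.13 (adjusted p = 0.0793) and the averaged one -0.34 ± 0.09 (adjusted p = 0.0531), which passed in 5 of 19 alternatives. A second probe set, at a nearly equal mean of 9.43, differed by -0.05 in old muscle and by -0.10 on average. Cxcl17, a mucosal chemokine, read 7.003, 7.21 and 6.49 in old wild-type arrays and 6.37, 6.61 and 6.58 in old arrays labelled knock-out, a difference of -0.38 ± 0.16 (adjusted p = 0.220). It was -0.23 without old wild-type array 2 (adjusted p = 0.505) and -0.59 without array 3 of that group (adjusted p = 0.111).

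Some high and low values belonged to single arrays. Young wild-type array 1 lay more than 0.5 above both other arrays of its group for 5 of 54 genes (9.26%), against 1.91% of all genes. They were Ccl5 (7.28 against 5.73 and 5.60), Ccl8 (7.22 against 6.18 and 6.35), the B cell attractant Cxcl13 (8.05 against 6.79 and 6.61), Cxcr4 (6.89 against 5.21 and 5.92) and the lymph node homing receptor Ccr7 (5.28 against 4.49 and 4.40). The same array had the highest mean of 8 B cell markers (7.11, against 5.95 to 6.77 in the other arrays) and of 12 T cell markers (5.94, against 5.32 to 5.56). Probe sets shared by the Ccl21 genes and by Ccl19 and its copies, which belong to no single gene and were not tested, were also highest there, at 9.15 and 7.34 against averages of 8.21 and 6.56 over the 12 arrays.

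Old knock-out array 1 lay above both others of its group for 4 genes and below both for 5. It was high for Ccl8 (9.13 against 7.60 and 7.20), Cxcl13 (7.71 against 6.77 and 6.74) and Ccl5 (7.18 against 5.70 and 5.79), and low for Ackr3, Ccl11, Ccl25, Ccl27a and Ccr2. Of all genes, 3.37% lay above and 3.79% below by that margin in this array. Old wild-type array 2 was high for 4 genes (7.41%, against 0.874% of all genes): Ccl6, Ccl9, the monocyte attractant Ccl2 and its receptor Ccr2 (6.76 against 5.52 and 5.35). Old wild-type array 3 lay below both others of its group by that margin for 5 genes (9.26%, against 0.621% of all genes): Ackr3, Cxcl17 and the called genes Ccl28, Cxcl10 and Cxcl14. The 4 genes Cxcl13, Ccl5, Ccl8 and Ccr2 passed in none of the 7 comparisons. The largest interaction estimate of the set, 0.93 ± 0.50 for Cxcl13 (adjusted p = 0.871), ran from 0.16 to 1.38 over its alternatives, and the second probe set of Cxcl13 gave 1.83.

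The wider chemokine pathway was read from lists of upstream inducers, receptor signalling and leukocyte traffic. With age averaged over genotypes, 4 of 35 measured inducers rose and 1 fell, beside 7.58% of all genes called higher and 8.65% called lower. Nfkb2, a subunit of the NF-kB pathway, rose by 0.42 ± 0.07 (adjusted p = 0.00138) and Tlr4, the endotoxin receptor, by 1.02 ± 0.21 (adjusted p = 0.00614), with Jun and Fos as the other two. Ltbr, the lymphotoxin beta receptor, fell by 0.54 ± 0.08 (adjusted p = 0.00108). The list's median was 0.05 against 0.00 over all genes. Of 33 signalling genes 1 rose and 3 fell, among them the kinase gene Jak2 (-0.43 ± 0.09, adjusted p = 0.00744) and Tiam1, an exchange factor of Rac (-1.01 ± 0.25, adjusted p = 0.0153). Of 26 traffic genes 2 rose, the adhesion genes Icam1 and Itgb1, and 2 fell. At 3 of 33 and 2 of 26, these counts lie near the shares over all genes. One of the 2 that fell was Dpp4, a protease that trims and inactivates several chemokines (-0.67 ± 0.15, adjusted p = 0.00834).

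Between genotypes, averaged over ages, 2 of 35 inducers were higher in muscle labelled knock-out: Tlr4 (0.93 ± 0.21, adjusted p = 0.0305) and Relb (0.43 ± 0.10, adjusted p = 0.0327), a partner of Nfkb2, where 1.71% of all genes were called higher and 4.22% in either direction. Arrb1, which uncouples and internalises receptors, was the 1 of 33 signalling genes to pass (0.60 ± 0.09, adjusted p = 0.00506). The smallest adjusted p among the 26 traffic genes was 0.142, for the protease gene Adam10. The platelet chemokine gene Ppbp, which the naming rule does not take in, was higher in old muscle labelled knock-out than in old wild-type (1.27 ± 0.25, adjusted p = 0.0300).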

How the data were processed

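RNA of 12 gastrocnemius samples was measured on mouse expression arrays with 1 label. The authors deposited log2 signals made with affy by RMA (per the submitters' processing notes), used here as they stand. Of 45101 probe sets 34958 named 1 gene, 932 several and 9211 none, and 34754 matched RefSeq. For each of 18194 genes the probe set with the highest mean was fitted with limma 3.58.1 in R 4.3.3 as 4 group means (8 residual degrees of freedom), and p-values of each of 7 comparisons were adjusted over all genes by Benjamini-Hochberg. The fit was tested on simulated data. The number of arrays, 3 a group, limits the precision. Genes were named if they passed in any comparison, were among the 4 smallest p of the brighter members in one, or were among the 10 brightest, and from the other lists the 3 smallest p per comparison. The members and lists were chosen with earlier results of these data known. Alternatives were another probe set rule, a filter on dim genes, centring, repeated quantile normalization, a trended and robust prior, array weights and arrays left out. No labels name a batch.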

Additional observations from a re-analysis of the deposited data

How the results depend on the processing

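Counts of members past the threshold moved with the setting. In old muscle, genotype called 1 gene with repeated quantile normalization and 1 with both young wild-type array 1 and old knock-out array 1 left out, and 0 to 1 with single arrays left out. Age in wild-type muscle called 1 with the mean of probe sets, 1 with dim genes filtered, 5 with both arrays left out and 0 to 4 with single arrays left out. Age in muscle labelled knock-out called 0 with the mean of probe sets, 2 with centring, 0 with quantile normalization, 4 with array weights, 3 with both arrays left out and 0 to 4 with single arrays left out. Averaged over genotypes, age called 2 with dim genes filtered, 8 with both arrays left out and 4 to 6 with single arrays left out. Averaged over ages, genotype called 4 with array weights, 5 with both arrays left out and 0 to 2 with single arrays left out. The cause of these changes was not tested. The dim gene filter removes Cxcl10, Cxcl11 and Cxcr2 by its construction.

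Estimates that changed sign were Cxcl12 with age in wild-type muscle, from 0.27 (limma adjusted p = 0.306) to -0.0083 with the mean of probe sets, and, from values near 0, the interactions of Cxcl11 (0.097 with the mean of probe sets, -0.17 to 0.024 with single arrays left out, 0.020 with both arrays left out) and Cxcr2 (0.021 and 0.025 without young wild-type array 1 or 3, 0.036 without old wild-type array 3, 0.032 without old knock-out array 2, in all -0.17 to 0.036, and 0.0021 with both left out). Among named genes and comparisons, 52 calls were lost and 24 gained over the alternatives.

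Counts over all genes moved too. Genotype in young muscle called 35, then 65 (dim genes filtered), 56 (quantile), 104 (trended prior), 1019 (array weights), 216 (both arrays out) and 1 to 173 (single arrays out). In old muscle it called 241, then 388 (filtered), 389 (trended prior) and 28 to 644 (single arrays out). Age in wild-type muscle called 659, then 2451 (weights) and 208 to 1093 (single arrays out), and in muscle labelled knock-out 1868, falling to 833 without young knock-out array 3. The interaction called 0 and reached 37 without old knock-out array 3. Averaged genotype called 768, then 1936 (weights), 1314 (both out) and 309 (without young wild-type array 2). No paired analysis was possible because the replicate numbers follow accession order and pair no arrays.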

Other observations

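By role, 13 inflammatory CC ligands were measured, among them Ccl2, Ccl5, Ccl6 and Ccl8, and 6 of the 13 lay above the median of all probe sets. They had a positive difference between old and young muscle, averaged over genotypes, for 12 genes, against 49.97% of all genes. Within wild-type muscle 9 were positive and within muscle labelled knock-out 11. Averaged over genotypes, their median was 0.12 on the log2 scale, the lowest -0.20 and the highest 0.74. None passed an adjusted p of 0.05 by limma. An unadjusted p under 0.05 was found for 4 (30.8%, near the 28.9% of all genes), 3 higher and 1 lower. The homeostatic CC ligands (5 measured) had a median of -0.03. The CXC ligands Cxcl1, Cxcl2, Cxcl3, Cxcl5 and Cxcl15 (5 measured, 1 above the median of all probe sets) had a median of -0.01.

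The 10 classical CC receptors, all below the median of all probe sets, were lower under the knock-out label for 8 genes when ages were averaged, with a median of -0.20, where 46.7% of all genes had a positive difference. Among all 34 members below the median of all probe sets 23 were lower, and these 10 receptors supply 8 of those 23. The part of signal level was not tested. None of the 10 passed by limma, 3 had an unadjusted p under 0.05 (23.2% of all genes did), and the smallest adjusted p was 0.168, for Ccr9. The 2 probe sets shared by Ccl27a, Ccl27b and their copies, at means of 9.09 and 8.65, differed by -0.05 and -0.04 in the same comparison.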
